A study of Mus musculus with 7 samples.

Results

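The NLRP3 inflammasome and the interferon response were followed in mouse RPE (retinal pigment epithelium, a single layer of pigmented cells that supports the photoreceptors) from control and Dicer1-deficient pups. The genes were Nlrp3, Nlrp1b, Aim2, Ifi204, Stat2, Irf1, Rsad2 and Cmpk2. They were taken as all probe sets whose platform annotation gives 1 of these symbols and no other, and all 8 genes were found, among 5017 genes in all. They had 106 of the 53644 probe sets with 1 symbol. A further 3 probe sets name both Mnda and Ifi204 and were left out.

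The RPE was dissected from pups at postnatal day 5, from matings of Dicer1 flox/+ animals carrying Dct cre with Dicer1 flox/flox animals. In the Dicer1-deficient group (3 arrays) both alleles of Dicer1 were floxed (Dicer1loxP/loxP;Dct-Cre), with Cre driven by the promoter of dopachrome tautomerase, a melanin synthesis gene of pigment cells. The control group (4 arrays) is labelled control RPE, and the labels do not say which alleles or whether Cre those pups carried. By the mating, every pup of either group received at least 1 floxed allele. Nothing in the labels says whether arrays came from separate animals or from pooled tissue, so the p-values cover only the spread among these arrays, which may be technical.

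Dicer1 encodes the RNase that releases mature microRNAs from their hairpin precursors and that can also degrade other double-stranded RNA. Loss of DICER1 in human RPE with advanced macular degeneration has been reported to let Alu RNA accumulate and to activate the NLRP3 inflammasome, and the comparison asks whether the genes of this system moved in Dicer1-deficient mouse RPE. An inflammasome is a complex in which a sensor protein recruits an adaptor and caspase-1, which then matures interleukin-1 beta and interleukin-18 and opens pores in the cell. Sensors of foreign or misplaced RNA and DNA in the cytoplasm lead to release of type I interferon, which acts through a complex that holds STAT2 and IRF9 to turn on interferon-induced genes. Much inflammasome activity is regulated at the protein level, which an RNA array does not measure.

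Promoter sequences are shown for Rsad2 and Stat2, the gene with the smallest p and the gene that passed the test in 1 alternative fit, and for Cmpk2, the direct neighbour of Rsad2 on chromosome 12 with no annotated gene between them. They are RefSeq sequences of build GRCm38.p6, each from 250 bases before to 50 bases after an annotated start site, written 5′ to 3′ on the strand of the gene. The capitals mark the core of the interferon-stimulated response element, which is GAAA, any 2 bases and GAAA again, searched on both strands.
Rsad2, chr12:26456403-26456702, minus strand: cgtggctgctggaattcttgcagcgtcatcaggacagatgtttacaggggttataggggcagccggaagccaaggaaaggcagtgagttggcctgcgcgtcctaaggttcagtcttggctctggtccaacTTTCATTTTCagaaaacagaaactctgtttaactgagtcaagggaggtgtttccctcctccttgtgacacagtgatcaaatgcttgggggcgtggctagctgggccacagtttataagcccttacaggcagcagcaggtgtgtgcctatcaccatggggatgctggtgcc
Stat2, chr10:128270248-128270547, plus strand: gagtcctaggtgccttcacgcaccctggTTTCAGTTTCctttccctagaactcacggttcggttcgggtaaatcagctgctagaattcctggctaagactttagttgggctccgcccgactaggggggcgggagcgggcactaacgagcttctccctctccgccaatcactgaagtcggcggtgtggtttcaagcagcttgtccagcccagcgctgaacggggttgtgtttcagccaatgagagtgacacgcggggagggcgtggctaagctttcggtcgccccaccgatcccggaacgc
Cmpk2, chr12:26468965-26469264, plus strand: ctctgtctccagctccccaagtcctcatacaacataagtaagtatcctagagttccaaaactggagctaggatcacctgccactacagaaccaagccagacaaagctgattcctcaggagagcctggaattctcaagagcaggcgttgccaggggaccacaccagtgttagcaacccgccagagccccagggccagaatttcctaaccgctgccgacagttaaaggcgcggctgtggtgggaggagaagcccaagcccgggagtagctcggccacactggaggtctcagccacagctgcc
Rsad2 and Stat2 each held 1 match, both on the opposite strand, with the first base at -120 and -222 from the start site, and Cmpk2 held none in this window. A match was found in 3.44% of 32851 RefSeq promoters of the same length. The core of the gamma-activated sequence, TTCNNNGAA, which reads the same on both strands, was in 1 of the 2 promoters listed for Irf1, as TTCCCCGAA from -90, and in 8.30% of all promoters. Neither motif was in the listed promoters of Nlrp3, Nlrp1b or Aim2. Ifi204 had no entry.

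Values were log2 signals of Affymetrix arrays, and the median of the whole table was 6.22. The table covered chromosomes 1, 10, 11, 12 and 13 for 4918 of its 5017 genes, so that Il1b, Il18, Casp1, Pycard, Mavs and Ifih1 were not analysed here. Dicer1 itself read 10.27 to 10.88 in control and 10.47 to 10.71 in Dicer1-deficient arrays where its signal was brightest (log2 fold change -0.05, limma adjusted p = 0.961), the labels do not say which part is floxed, and Dicer1-deficient is the name of the group by its genotype. Control 4 stood apart from the other arrays. It correlated with them at 0.943 to 0.951 across probe sets, against at least 0.980 within the Dicer1-deficient group, and its median was 6.05 against 6.22 to 6.26. Because of this, results are also given without it. RPE markers were bright in every array, with Pmel at 12.66 ± 0.04 (SD, n = 4) and Serpinf1, which encodes PEDF, at 12.13 ± 0.09 (SD, n = 4) in control. Collagen genes of fibroblasts and sclera were bright too, such as Col3a1 at 13.18 ± 0.07 (SD, n = 4), and the part of cells other than RPE in the signal was not tested.

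None of the 8 genes passed the test between the groups. At the brightest probe set of each gene, 0 of 8 passed limma at a Benjamini-Hochberg adjusted p of 0.05, where 2.33% of all genes did, and 0 of 8 had an unadjusted p under 0.05, where 14.5% of all genes did. The log2 fold changes, Dicer1-deficient minus control, ran from -0.16 (Nlrp1b) to 0.80 (Rsad2). Of the 8, 7 lay within 0.2 of no change. Arrays did not overlap between groups for 1 gene, Rsad2, against 16.3% of all genes (9.27% in its direction, higher). Of the signs, 4 were positive and 4 negative, and the limma adjusted p ran from 0.399 to 0.997. In dissected tissue, fewer cells of a type and less RNA per cell cannot be told apart.

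**Figure D1:**
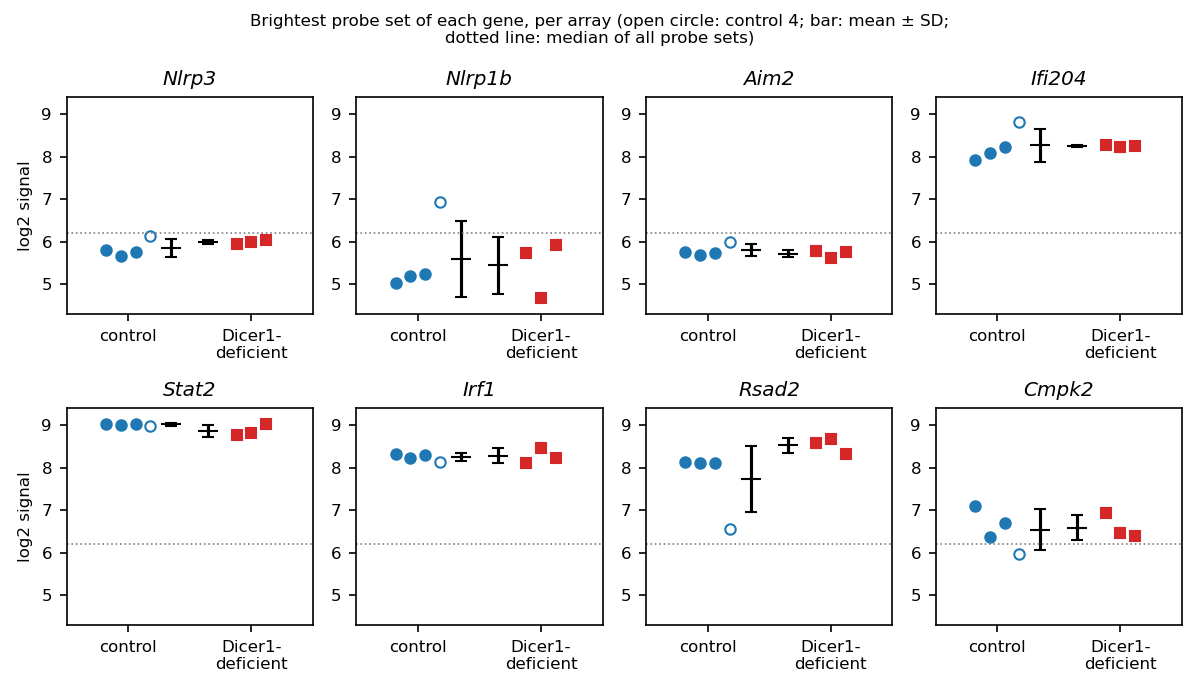
Log2 signal of the brightest probe set of each gene in the 4 control arrays (blue circles, control 4 open) and the 3 Dicer1-deficient arrays (red squares), with the mean and SD of each group and the median of all probe sets as a dotted line. Rsad2 is the 1 gene whose groups do not overlap, and control 4 is the highest array for Nlrp3, Nlrp1b, Aim2 and Ifi204 and the lowest for Rsad2 and Cmpk2.

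Nlrp3, on chromosome 11, encodes the sensor that responds to loss of membrane integrity, potassium efflux and crystals. Its brightest probe set read 5.82, 5.66, 5.77 and 6.14 in controls 1 to 4 and 5.94, 5.99 and 6.04 in Dicer1-deficient arrays 1 to 3. The Dicer1-deficient values fell between the low controls 1 to 3 and the high control 4. Their log2 fold change was 0.14 (SE 0.13; limma adjusted p = 0.749), and its 95% interval, -0.16 to 0.44, reached at most a 1.36-fold rise. Without control 4 it was 0.24 (95% interval 0.05 to 0.43; limma unadjusted p = 0.0211, adjusted p = 0.141, with 5.18% of all genes past the adjusted threshold in that fit).

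The probe sets of Nlrp3 disagreed. Of its 17, 13 were lower and 4 higher in Dicer1-deficient arrays, with a median log2 fold change of -0.07, and 11 were lower without control 4. Probe set 10376521 was the 1 with groups that did not overlap, at 4.1, 4.58, 4.58 and 4.27 in control and 4.86, 4.76 and 4.73 in Dicer1-deficient arrays, and the 1 with an unadjusted p under 0.05 (log2 fold change 0.40; limma adjusted p = 0.381). The other positive ones, beside the brightest, were 10376516 (0.13) and 10376518 (0.26). The control means of the 17 ran from 3.55 to 5.85, all below the median of the table, and Nlrp3 was not shown to be above background in either group. Averaged over its 17 probe sets, Nlrp3 read 4.29 ± 0.04 (SD, n = 4) in control RPE and 4.24 ± 0.05 (SD, n = 3) in Dicer1-deficient RPE, a log2 fold change of -0.06 (95% interval -0.23 to 0.11). None of the 8 genes passed limma on such means, where 5.86% of all genes did. A signal near background understates a difference, so these intervals bound the signal and not the amount of Nlrp3 RNA.

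Nlrp1b, also on chromosome 11, encodes a sensor that is cleaved by proteases such as anthrax lethal factor. In controls 1 to 4 it read 5.04, 5.19, 5.25 and 6.94, and in Dicer1-deficient arrays 5.74, 4.68 and 5.92. Control 4 was the highest of all 7 arrays and Dicer1-deficient array 2 the lowest. Controls 1 to 3 lay above that array and below Dicer1-deficient arrays 1 and 3. The log2 fold change of Nlrp1b, -0.16 (SE 0.50, limma adjusted p = 0.964), had the widest 95% interval of the 8, -1.32 to 1.01. It was 0.29 without control 4 (limma adjusted p = 0.630). Averaged over its 20 probe sets the gene read 4.43, 4.40, 4.38 and 4.66 in control and 4.35, 4.29 and 4.35 in Dicer1-deficient arrays. These means did not overlap (18.9% of all genes did not on such means), and the limma adjusted p was 0.533 for a log2 difference of -0.14. All 20 probe sets lay below the median of the table, 16 of them with a negative log2 fold change, and at 1, probe set 10388066, the groups did not overlap (-0.23; limma adjusted p = 0.555). Nlrp1a and Nlrp1c-ps are close copies of Nlrp1b, so probe sets may share signal between them.

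Aim2, on chromosome 1, encodes the cytoplasmic DNA sensor that forms its own inflammasome. It read 5.77, 5.69, 5.73 and 6.00 in control and 5.78, 5.63 and 5.76 in Dicer1-deficient arrays. Apart from control 4 all arrays lay within a narrow band, and the log2 fold change was -0.08 (SE 0.11; limma adjusted p = 0.882; 95% interval -0.33 to 0.18). Without control 4 it was -0.01. None of its 5 probe sets had a mean above the median of the table, and Aim2 was not shown to be above background.

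Ifi204 belongs with Aim2 to the interferon-inducible PYHIN family of DNA-binding proteins and lies on the same chromosome. At its brightest probe set it read 7.92, 8.10, 8.24 and 8.81 in control, against 8.29, 8.24 and 8.26 in Dicer1-deficient arrays. All 3 Dicer1-deficient values lay inside the control range, and the log2 fold change was -0.0033 (95% interval -0.47 to 0.46; limma adjusted p = 0.997). Its 5 probe sets disagreed, from -0.32 to 0.67. The highest was probe set 10360384, at 6.6, 5.67, 5.71 and 6.27 in control and 6.51, 6.91 and 6.78 in Dicer1-deficient arrays (unadjusted p under 0.05, limma adjusted p = 0.351). Control 1 was above Dicer1-deficient array 1 there, so the groups overlapped. PYHIN genes are close copies of each other, and signal may be shared between them.

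Stat2, on chromosome 10, encodes the transcription factor that joins IRF9 in the complex that binds the interferon-stimulated response element. Its brightest probe set read 9.04, 9.0, 9.04 and 8.98 in control and 8.76, 8.81 and 9.03 in Dicer1-deficient arrays. Dicer1-deficient arrays 1 and 2 were below every control and array 3 was among them. This gave a log2 fold change of -0.15 (SE 0.10; limma adjusted p = 0.606), with a 95% interval of -0.38 to 0.08.

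The probe sets of Stat2 leaned one way. Of its 27, 22 had a negative and 5 a positive log2 fold change, with a median of -0.14, while 49.7% of all probe sets were positive. Without control 4, 23 were negative, with a median of -0.28. Probe sets 10367227 and 10367240 were lower in every Dicer1-deficient array. The former read 8.43, 8.51, 8.73 and 8.83 in control and 7.72, 8.22 and 8.18 in Dicer1-deficient arrays. Averaged over the 27 probe sets, Stat2 read 6.82, 6.91, 6.81 and 6.52 in control and 6.6, 6.53 and 6.56 in Dicer1-deficient arrays. On these means control 4 was the lowest array, the other controls were above every Dicer1-deficient array, and the log2 difference was -0.20 (limma adjusted p = 0.387). On the same means without control 4 it was -0.28 (SE 0.06; limma adjusted p = 0.013), the 1 fit in which any of the 8 genes passed, and 17% of all genes passed in that fit. Probe sets of 1 gene share its RNA and are not replicates.

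Irf1, on chromosome 11, encodes an interferon-induced transcription factor that activates many of the same genes. It read 8.32, 8.24, 8.31 and 8.13 in control and 8.12, 8.47 and 8.24 in Dicer1-deficient arrays. Dicer1-deficient arrays held both the lowest and the highest value, and the log2 fold change was 0.03 (SE 0.12; limma adjusted p = 0.972; 95% interval -0.24 to 0.29). Of its 14 probe sets 12 were positive, and 7 were so without control 4. At probe set 10376065 the groups did not overlap, with 7.29, 7.20, 7.5 and 7.08 in control and 7.61, 7.68 and 7.77 in Dicer1-deficient arrays (log2 fold change 0.42; limma adjusted p = 0.275). Probe set 10376070 went the other way, at 5.46, 5.25, 5.45 and 5.07 in control and 4.65, 5.15 and 4.84 in Dicer1-deficient arrays (-0.43; unadjusted p = 0.0343, limma adjusted p = 0.372), with overlapping groups and a signal below the median of the table.

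**Figure D2:**
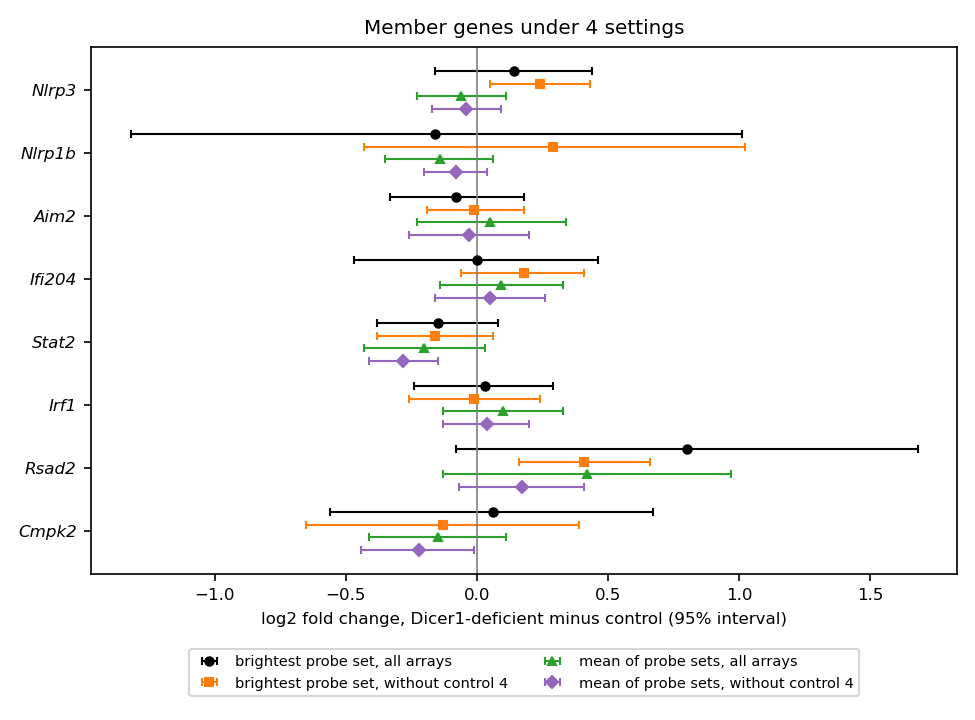
Log2 fold change of each gene, Dicer1-deficient minus control, with its 95% interval from limma, at the brightest probe set and on the mean of all probe sets, each with all 7 arrays and without control 4. The value of Rsad2 goes from 0.80 to 0.17 across the settings, and the interval of Stat2 lies below 0 only for the mean once control 4 is left out.

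Rsad2, on chromosome 12, encodes viperin, an interferon-induced enzyme that makes a chain-terminating nucleotide from CTP and limits many viruses. Its brightest probe set read 8.14, 8.10, 8.12 and 6.57 in control and 8.59, 8.67 and 8.33 in Dicer1-deficient arrays. All Dicer1-deficient arrays were above all controls, controls 1 to 3 lay close together and control 4 stood far below every other array. The log2 difference was 0.80 (SE 0.38; limma adjusted p = 0.399), and its 95% interval, -0.08 to 1.68, reached up to a 3.21-fold rise. Without control 4 it was 0.41, with a smaller SE of 0.10 and an interval of 0.16 to 0.66, and it did not pass (limma adjusted p = 0.0725).

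Control 4 was the lowest array at 8 of the 9 probe sets of Rsad2, against 31.8% of all probe sets. With it, 8 of 9 had a positive log2 fold change with a median of 0.44, and without it 8 of 9 with a median of 0.10. At probe set 10399715 control signals were 7.20, 6.17, 6.14 and 4.39, against 7.05, 6.62 and 6.80 in Dicer1-deficient arrays. Control 1 was there the highest array, so the log2 fold change of 0.85 came with overlapping groups. At probe set 10399719 the groups did not overlap, with 6.63, 6.85, 6.72 and 5.73 in control and 7.33, 6.93 and 7.28 in Dicer1-deficient arrays. Averaged over its 9 probe sets, Rsad2 read 6.99, 6.66, 6.57 and 5.73 in control and 6.97, 6.90 and 6.86 in Dicer1-deficient arrays. Control 1 was the highest array on these means, and the log2 difference was 0.42 (limma adjusted p = 0.456), or 0.17 without control 4 (adjusted p = 0.320).

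Cmpk2, the neighbour of Rsad2, encodes a mitochondrial nucleotide kinase that is induced by interferon and supplies CTP, the substrate of viperin. It read 7.11, 6.37, 6.69 and 5.98 in control and 6.93, 6.46 and 6.39 in Dicer1-deficient arrays. Control 4 was the lowest and control 1 the highest, with all Dicer1-deficient arrays between them, and the log2 fold change was 0.06 (SE 0.27; limma adjusted p = 0.974; 95% interval -0.56 to 0.67). Without control 4 it was -0.13. Of its 9 probe sets 6 were negative, 7 without control 4. At 1 of them, 10395047, every Dicer1-deficient array was lower, with 7.03, 6.66, 6.58 and 6.67 in control and 6.52, 6.20 and 6.16 in Dicer1-deficient arrays (log2 fold change -0.44; limma adjusted p = 0.327). Probe set 10395042 had an unadjusted p under 0.05 as well (-0.41; limma adjusted p = 0.422), with overlapping groups. On its mean, and without control 4, the log2 fold change of Cmpk2 was -0.22 (95% interval -0.44 to -0.01; limma adjusted p = 0.151), while that of Rsad2 was positive. Whether the genes of this pair differed from each other in response was not tested.

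**Figure D3:**
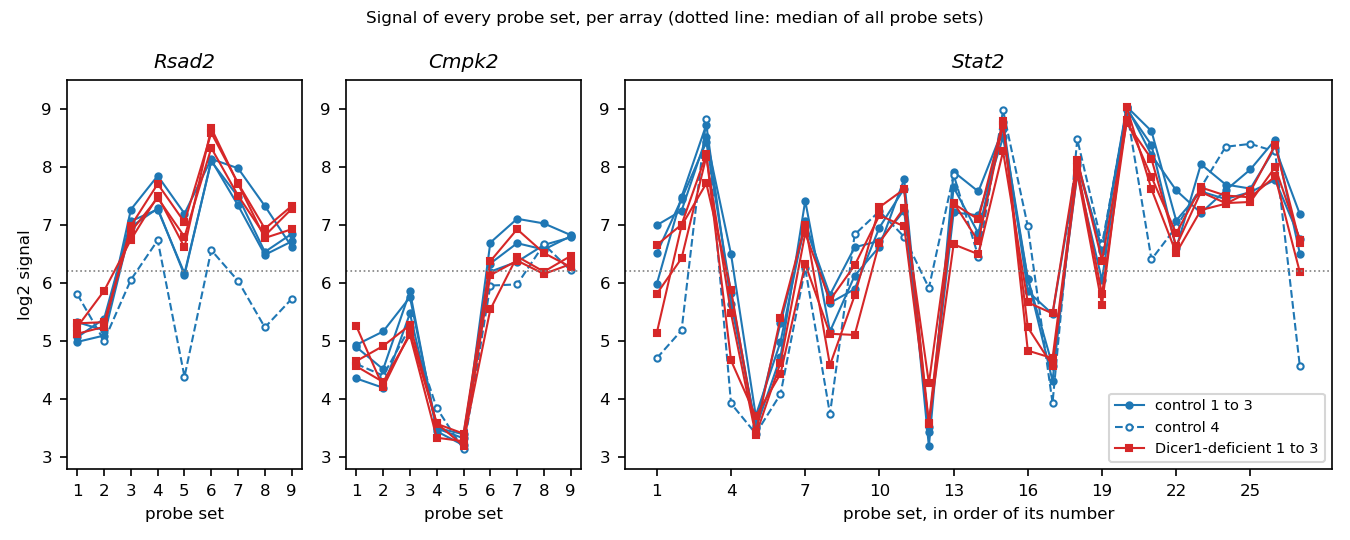
Log2 signal of every probe set of Rsad2 (9), Cmpk2 (9) and Stat2 (27) in each array, in order of probe set number, with controls in blue (control 4 dashed) and Dicer1-deficient arrays in red. Control 4 is the lowest array at 8 of the 9 probe sets of Rsad2, and 22 of the 27 probe sets of Stat2 have a lower mean in Dicer1-deficient arrays.

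Over all 106 probe sets of the 8 genes, 0 passed limma adjusted over the 53644 probe sets, where 1.06% passed, and 9 (8.49%) had an unadjusted p under 0.05, where 11.7% did. The lowest adjusted p was 0.226. Without control 4, 0 passed as well, against 2.3% of all probe sets. The groups did not overlap at 8 of the 106, 4 higher and 4 lower, where 14% of all probe sets did not (7.35% higher and 6.62% lower). A positive log2 fold change was found at 40 of 106 (37.7%), and at 34 without control 4. Of the 106, 39 had a mean above the median of the table, none of them from Nlrp3, Nlrp1b or Aim2, 18 from Stat2, 8 from Irf1, 7 from Rsad2 and 3 each from Cmpk2 and Ifi204.

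**Figure D4:**
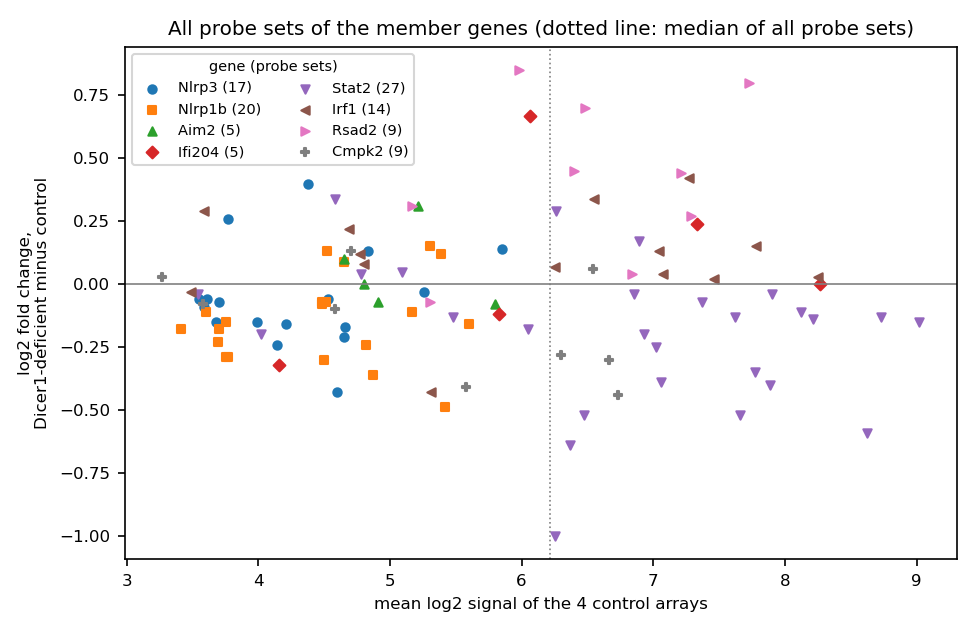
Log2 fold change of each of the 106 probe sets, Dicer1-deficient minus control, against its mean log2 signal in the 4 control arrays, with symbols by gene and the median of all probe sets as a dotted line. The probe sets of Nlrp3, Nlrp1b and Aim2 all lie left of that line, and those of Stat2 reach down to -1.0 while those of Rsad2 reach up to 0.85.

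The wider pathways gave no call either. Of 232 genes in 7 lists (with some genes in more than 1 list), 84 were measured, and 0 passed limma over all genes in either direction, where 1.42% of all genes passed as higher and 0.917% as lower. At an unadjusted p under 0.05, 2 were higher and 7 lower, where 7.85% of all genes were higher and 6.6% lower (14.5% together, against 10.7% of the 84). Arrays did not overlap for 9 of the 84 (10.7%), against 16.3% of all genes. The median log2 fold change of the 84 was -0.03, beside -0.01 for all genes. Without control 4, 1 of the 84 passed, Slfn10-ps at -0.78 (limma adjusted p = 0.0168), where 5.18% of all genes did. Control 4 read 5.87 at that brightest probe set, against 7.81, 8.06 and 7.89 in controls 1 to 3. Dicer1-deficient arrays read 6.93, 7.21 and 7.27 there. The mean over the 7 probe sets of Slfn10-ps, with all arrays, gave -0.01 (limma adjusted p = 0.991).

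Of the inflammasome list, 12 of 41 genes were measured, with a median log2 fold change of -0.05 and 0.22 without control 4. The medians of all genes were -0.01 and 0.03. On the mean of probe sets, with all arrays, the median of the list was -0.03, and 5 of the 12 had a brightest probe set above the median of the table. Nek7, whose kinase binds NLRP3 and is needed for its activation, read 12.16 ± 0.16 (SD, n = 4) in control RPE and 11.92 ± 0.16 (SD, n = 3) in Dicer1-deficient RPE (log2 fold change -0.25; limma adjusted p = 0.464). Irak3, an inhibitor of interleukin-1 and Toll-like receptor signalling, was at -0.24 (adjusted p = 0.467). Il18r1, a subunit of the interleukin-18 receptor, read 5.49, 5.44, 5.22 and 5.75 in control and 5.83, 5.75 and 5.88 in Dicer1-deficient arrays. Its groups just did not overlap (0.35; limma adjusted p = 0.285), its signal was below the median of the table and its mean over 16 probe sets gave -0.02. The interleukin-1 receptor gene Il1r1 was at -0.05, and Nlrp1a and Nlrp1c-ps at 0.08 and 0.20.

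The PYHIN family, the relatives of Aim2 and Ifi204, had 9 of 15 members measured. Their median was -0.11, with 7 of 9 negative, and -0.01 without control 4. Ifi207 read 8.58, 8.46, 8.41 and 8.17 in control and 8.13, 8.0 and 8.23 in Dicer1-deficient arrays, a log2 change of -0.28 (limma adjusted p = 0.346). Ifi202b (-0.32; adjusted p = 0.281) and Ifi205 (0.20; adjusted p = 0.702) had signals below the median of the table.

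Sensors of RNA and DNA and their signalling gave a median of 0.00 over 16 of 47 genes, 8 positive and 8 negative. Without control 4 the median was 0.12, beside 0.03 for all genes. Tbk1, the kinase that activates IRF3, went from 9.44 ± 0.15 (SD, n = 4) to 9.63 ± 0.09 (SD, n = 3), which is 0.19 on the log2 scale (limma adjusted p = 0.556). Rnf135, a ubiquitin ligase that activates RIG-I, was at 0.27 (adjusted p = 0.406) and Dhx58, which encodes LGP2, a relative of RIG-I, at 0.18 (adjusted p = 0.855). The double-stranded RNA helicase gene Dhx9 was at 0.12 and Trim25 at -0.09. The lowest values of the list were those of Traf3 (-0.23, limma adjusted p = 0.567) and Ripk1 (-0.16, limma adjusted p = 0.586). The probe set annotated as Ddx3x, an RNA helicase gene of the X chromosome, did not overlap between groups (0.25; limma adjusted p = 0.260). It was the 1 probe set annotated to that gene. The X chromosome is not among those that hold most genes of the table, and where this probe set lies was not checked.

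In the list of interferons, receptors, JAK-STAT and IRF factors, 14 of 38 genes were measured, with a median of -0.04. Stat3, the main transducer of interleukin-6 family signals, read 10.99, 10.84, 10.86 and 10.87 in control and 10.74, 10.50 and 10.72 in Dicer1-deficient arrays. Every Dicer1-deficient array was lower, and the log2 fold change of -0.24 did not pass (limma adjusted p = 0.341). Irf4, a factor of lymphocytes and pigment cells, was at -0.70 (adjusted p = 0.284) at a signal of 4.76 ± 0.31 (SD, n = 4) in control, below the median of the table. Ifng, the interferon gamma gene, read 4.92 ± 0.23 (SD, n = 4) and 4.97 ± 0.06 (SD, n = 3), also below it. Its receptor gene Ifngr1 was at 0.08.

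Of the interferon-induced genes 23 of 70 were measured, Rsad2, Cmpk2, Ifi204 and Stat2 among them, with a median of 0.00 and 11 positive. Lgals3bp, a secreted glycoprotein gene, did not overlap between groups, with 9.76, 9.81, 9.68 and 9.62 in control and 10.10, 9.91 and 9.87 in Dicer1-deficient arrays (0.24; limma adjusted p = 0.348). Lgals9, the galectin-9 gene, did not overlap in the other direction (-0.20; adjusted p = 0.418). The nuclear body genes Sp100 (0.30) and Sp110 (0.23), the apoptosis gene Xaf1 (0.36) and the GTPase genes Igtp (0.23) and Irgm1 (0.22) had positive values. Ifi35 (-0.16), Ifi27l2a (-0.23) and the GTPase gene Ifi47 (-0.27) had negative ones, with limma adjusted p from 0.449 to 0.937 for these 8 genes.

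The Schlafen family, interferon-induced genes of lymphoid and myeloid cells, was the list with the lowest median, -0.30, or -0.36 without control 4. Of 9 genes 8 were measured and 7 were negative, 2 of them with groups that did not overlap (25% of the 8, against 16.3% of all genes). Slfn9 read 7.48, 7.43, 7.32 and 7.75 in control and 6.93, 7.12 and 6.57 in Dicer1-deficient arrays, a log2 fold change of -0.62 (SE 0.16; limma adjusted p = 0.107). Slfn2 read 7.43, 7.24, 7.49 and 7.21 in control and 6.92, 7.02 and 7.04 in Dicer1-deficient arrays (-0.35; adjusted p = 0.178). Slfn8 was at -0.34 (adjusted p = 0.337). On the mean of probe sets, with all arrays, Slfn9 was at -0.30, Slfn2 at -0.21 and Slfn8 at -0.22. The median of the list was then -0.21, and none of its genes passed limma. The copies lie in 1 cluster and resemble each other, so their signals may be shared.

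Of the NF-kappaB genes, 8 of 27 were measured, with a median of 0.00. The inhibitor genes Nfkbia (0.02) and Tnfaip3 (0.02), which NF-kappaB itself induces, differed little between the group means. Tnfrsf13b, a receptor gene of B cells, did not overlap between groups (-0.47; limma adjusted p = 0.325). Rel (0.12) and Map3k14 (-0.09) followed in the order of p.

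**Figure D5:**
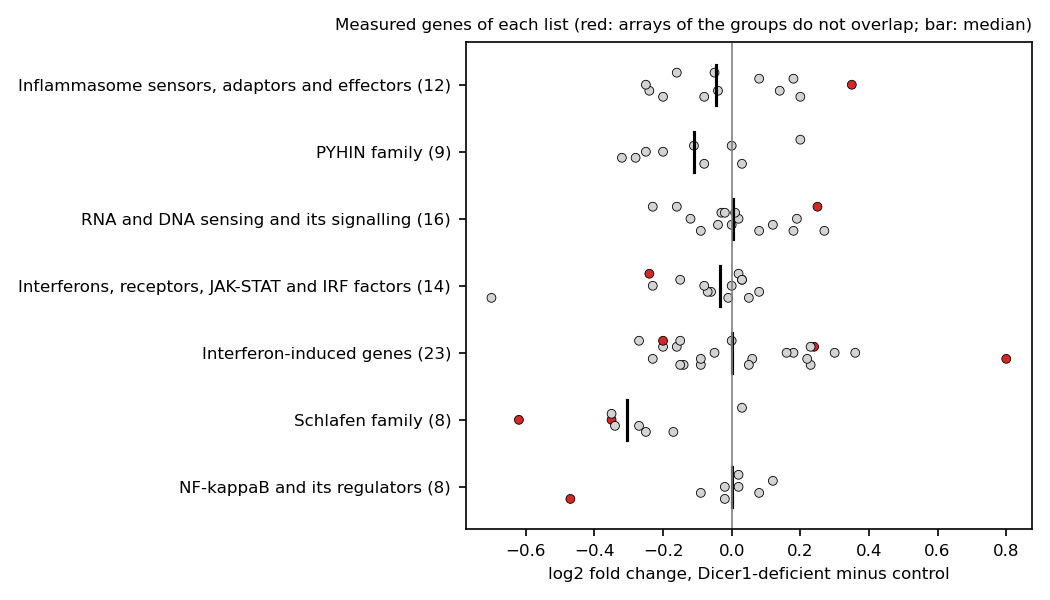
Log2 fold change of every measured gene of the 7 lists at its brightest probe set, Dicer1-deficient minus control, with a bar at the median of each list and red points where the arrays of the groups do not overlap. Medians lie between -0.30 (Schlafen family) and 0.00, and Rsad2 is the point at 0.80.

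Immune cells express many of these genes. Of 23 macrophage and microglia markers 12 were measured, with a mean level of 7.30 to 7.95 in control arrays, highest in control 4, and 7.30 to 7.48 in Dicer1-deficient arrays. Ptprc, the CD45 gene of all leukocytes, read 9.16 ± 0.11 (SD, n = 4) and 9.19 ± 0.27 (SD, n = 3). Fcgr2b, an inhibitory Fc receptor gene, was the 1 of these 12 that passed the test (0.917% of all genes passed as lower), from 8.08 ± 0.17 (SD, n = 4) to 7.28 ± 0.08 (SD, n = 3), a log2 change of -0.80 (limma adjusted p = 0.0164). Cd68, a lysosomal protein gene of macrophages, did not pass but was lower in every Dicer1-deficient array, with 9.0, 9.07, 9.11 and 9.5 in control and 8.59, 8.77 and 8.76 in Dicer1-deficient arrays (-0.46; limma adjusted p = 0.170). These 2 were the macrophage markers whose groups did not overlap (7.02% of all genes did not, with Dicer1-deficient arrays lower). The 7 measured of 14 lymphocyte markers had a mean level of 6.33 to 6.64 in control and 6.41 to 6.68 in Dicer1-deficient arrays. The 6 measured of 14 RPE markers had a mean level of 11.32 to 11.49 in control and 10.95 to 11.07 in Dicer1-deficient arrays, with 1 past the test, the potassium channel gene Kcnj13 at -1.19 (limma adjusted p = 0.0051). Kcnj13, Rdh10, Rdh5 and Tspan10, 4 of the 6, were lower in every Dicer1-deficient array. For 9 fibroblast and scleral markers the mean level was 11.67 to 11.80 in control and 11.30 to 11.54 in Dicer1-deficient arrays. None passed the test, and 4 (Ogn, Fmod, Prelp and Omd) were lower in every Dicer1-deficient array. The groups overlapped for Col3a1 (log2 fold change 0.01), Col1a1 (-0.01), Lum (-0.04), Dcn (-0.14) and Col5a2 (-0.15). The 5 retinal progenitor and neuron markers had a mean level of 5.99 to 6.55 in control and 6.55 to 7.28 in Dicer1-deficient arrays. Nr2e1 passed as higher (0.69, limma adjusted p = 0.0155), as 1.42% of all genes did. Tfap2b was higher in every Dicer1-deficient array (0.86, limma adjusted p = 0.0938). The groups overlapped for Neurod4 (1.83, limma adjusted p = 0.325), Prox1 (0.28) and Atoh7 (-0.03). No marker of photoreceptors (3 measured, median log2 fold change 0.76), lens (6, median 1.34) or melanocytes and Schwann cells (3, median -0.59) passed, and of these Erbb3 and Pax3 of the last list were lower in every Dicer1-deficient array. The part of these cells in the values of the 8 genes was not tested.

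The arrays of 7 samples allow only a rough view of which genes share a pattern. Across them, the brightest probe set of Nlrp3 was most like those of Apc2 (Pearson r = 0.993), Serpina3k (0.985) and Cd300e (0.972), and 58 genes had r above 0.9. Rsad2 was most like Elac2 (0.993), Sf3a1 (0.989) and Clasp1 (0.987), and 178 genes had r above 0.9, none of these 3 being in the interferon lists. These correlations describe 7 arrays that share 2 groups and the outlying control 4, with no test.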

How the data were processed

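Total RNA of dissected RPE (miRNeasy kit) was biotin-labelled and hybridised to Affymetrix arrays, per the labels' protocols. The table deposited by the authors holds log2 signals, and the submitters' processing notes name RMA and Partek 6.6 without their roles. Build, probe alignment and filters: not given in the sources used here. Of 65535 probe sets, 53644 had 1 gene symbol, 877 several and 11014 were unnamed here. Each covers part of a gene. Symbols were updated through the RefSeq gene table: 4321 were current, 698 updated and 13 unmatched.

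Each gene was tested at its brightest probe set (by the mean of all 7 arrays) with limma (lmFit, eBayes, two-sided, Benjamini-Hochberg over 5017 genes, threshold 0.05), and all probe sets in a second fit. Fold changes are differences of log2 signals, no filter on dim genes was used, and the number of arrays limits precision. Replicate numbers are names only. The members, lists and alternatives were chosen with earlier results of these data known. Named genes are the members, listed genes past the threshold and the 3 with the smallest p per list; others were chosen after their values were seen. The code was tested on simulated data. Tools were R 4.3.3, limma 3.58.1, Python 3.11.15, pandas 2.3.3 and matplotlib 3.10.9.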

Additional observations from a re-analysis of the deposited data

Results flagged for a closer look

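Among the 4 controls, control 4 lay far from the others for 2 of the 8 genes. At the brightest probe set of Rsad2 it read 6.57 where the next control read 8.10, a gap of 0.975 of the range of the group. At the brightest probe set of Nlrp1b it read 6.94 where the next control read 5.25, a gap of 0.892 of the range. Both gaps exceed Dixon's 95% critical value for 4 samples, which chance does in about 1 in 20 groups. These were the 2 flagged of 35 control groups examined (27 genes at the brightest probe set, and the 8 members on the mean of probe sets). The 27 were not all of the 84 listed genes, and control 4 stood apart at others too. Trim25 read 9.42, 9.42, 9.48 and 10.28 in controls 1 to 4, and Ccl5 read 6.36, 6.28, 6.33 and 7.03.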

How the results depend on the processing

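The 8 genes gave 162 values under alternatives, of which 133 kept direction and side of the threshold, 28 turned sign and 1 passed. Changes of moderation, of threshold or of a filter on dim genes leave the fold change as it is. Its sign could not turn in those, so the 133 overstate how stable the direction was. The value that passed was Stat2, averaged over probe sets and without control 4 (-0.28). Rsad2 kept its sign throughout, from 0.17 to 0.93.

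Signs turned for Nlrp3 on the mean of probe sets (-0.06), on their median (-0.14) and on the mean without control 4 (-0.04). For Nlrp1b they turned with array weights (0.31), without control 4 (0.29) and without Dicer1-deficient array 2 (0.23), in a leave-out range of -0.39 to 0.29. For Aim2 they turned on the mean (0.05) and with array weights (0.0034). For Ifi204 they turned on the mean (0.09), median (0.59), mean without control 4 (0.05), mean of probe sets above the table median (0.30; chosen after seeing the data), with array weights (0.12), and without control 4 (0.18) or Dicer1-deficient array 2 (0.0062) or 3 (0.00071), in a leave-out range of -0.12 to 0.18. For Irf1 they turned with median centring (-0.002), array weights (-0.02), and without control 4 (-0.01) or Dicer1-deficient array 2 (-0.07), in a leave-out range of -0.07 to 0.11. For Cmpk2 they turned on the mean (-0.15), median (-0.37), mean without control 4 (-0.22), mean of bright probe sets (-0.23), with array weights (-0.04), and without control 2 (-0.00018), control 4 (-0.13) or Dicer1-deficient array 1 (-0.11), in a leave-out range of -0.13 to 0.25. The cause was not tested. Nlrp3, Nlrp1b and Aim2 have no probe set above the table median and so no value there.

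All genes past the threshold numbered 117, and 294 on the mean of probe sets, 176 on the median, 265 on bright probe sets, 853 on the mean without control 4, 76 without moderation, 385 with array weights, 213 at 0.1, 37 at 0.01 and 33 to 260 with 1 array left out. Of the 84 listed genes 0 passed, and 3 with array weights (Il18r1, Slfn2 and Slfn9), 0 to 1 with 1 array left out and 13 on the mean without control 4 (2 higher and 11 lower, 15.5% of the 84, where 17% of all genes passed). How these 17% divide into higher and lower is not given here. No member probe set passed in any of the alternatives run, and 34 to 47 of 106 were positive with 1 array left out. No paired analysis was possible because the labels give no replicate numbers shared between groups. Signals below the table median limit what could be seen of Nlrp3, Nlrp1b and Aim2.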

Other observations

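Of the 13 listed genes that passed limma when averaged over probe sets and without control 4, Igtp (0.41) and Ddx3x (0.23) were higher and the other 11 lower. The lower ones were Ifi27l2a (-0.49), Ifi47 (-0.47), Ifi207 (-0.46), Slfn3 (-0.40), Lgals9 (-0.29), Nampt (-0.29), Stat2 (-0.28), Nek7 (-0.27), Stat3 (-0.27), Slfn5 (-0.26) and Slfn2 (-0.21), with limma adjusted p from 0.00227 to 0.0456 over the 13. Their share of the 84 listed genes, 15.5%, was close to the 17% of all genes that passed in that fit. The fit was chosen knowing that control 4 stands apart. How the 17% divide into higher and lower is not given here, so the split of the 13 cannot be judged.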
